A study of Sus scrofa with 3 samples.

Results

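The genes described here are those of the cilium, its axoneme and the centrosome, taken by symbol alone from the count tables of 3 pig livers. A gene ID was a member when its pig symbol belonged to the DNAH, DNAI, DNAL, DNAAF, CFAP, IFT, BBS, TEKT, RSPH, SPAG, CEP or TCTN families or was MNS1. This gave 125 of 25322 gene IDs, from 161 such symbols in the table that pairs IDs with names. By symbol, 67 members were axonemal, 24 belonged to transport along the cilium or to its base gate (IFT, BBS and TCTN), and 32 were centrosomal (CEP and SPAG5). The remaining 2, SPAG4 and SPAG11, had no count. The rule uses symbols alone, but the families were selected on earlier results from these same 3 libraries, count differences between the breeds included. The counts and folds given here therefore describe the members and carry no test.

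The animals were male and 90 days old, and liver RNA gave 1 library from an Enshi black pig (a Chinese local breed), 1 from a Chinese wild boar and 1 from a Large White pig (a European commercial breed). The labels name no treatment, litter or pooling. Breed, animal and library cannot be told apart, and without replicates no difference was checked against biological spread or given a p-value. The libraries held 20654571, 20215871 and 19982627 gene counts in that order. Levels are in CPM, counts divided by library totals that TMM factors had adjusted, so that 1 count was worth 0.0463, 0.0505 and 0.0512 CPM. Levels are not corrected for transcript length and are compared between libraries. Where a gene's share of a group's counts is given, or members are picked by their counts, this refers to reads and not to transcript numbers. Hepatocyte markers were abundant in each library, with 9 matched markers summing to 112420, 94335 and 64216 CPM, although APOA1 among them had only 2, 2 and 0 counts.

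A cilium is a microtubule shaft, the axoneme, that grows from a basal body, which is a centriole docked at the cell surface. Motile cilia and sperm flagella carry dynein arms, radial spokes and further axonemal proteins that make the shaft bend, and immotile primary cilia largely lack them. Intraflagellar transport (IFT) trains and the BBSome carry cargo along the shaft, and a transition zone at the base, which includes the tectonic proteins, acts as a gate. In liver, bile duct cells (cholangiocytes) carry a primary cilium that senses bile flow, whereas hepatocytes are generally without one. Hepatocytes do have centrosomes, which organise microtubules and the mitotic spindle.

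Every centrosomal and every transport and gate member had reads in at least 1 library, and of the 67 axonemal members 12 had none. At least 1 CPM in at least 1 library, called expressed here, was reached by 30 of 32 centrosomal, 20 of 24 transport and gate, and 26 of 67 axonemal members. Among all 11804 IDs with a symbol, 74.2% were expressed. In total 76 members were expressed, 35 had counts below that level and 14 had no count in any library. All 14 without a count were axonemal or of the other SPAG genes: the radial spoke gene RSPH4A, the central apparatus genes SPAG6 and SPAG17, the tektins TEKT2 and TEKTL1, DNAI4, SPAG1, SPAG4, SPAG11 and 5 CFAP genes. A library with no count allows up to 3 counts, or 0.139, 0.152 and 0.154 CPM.

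**Figure D1:**
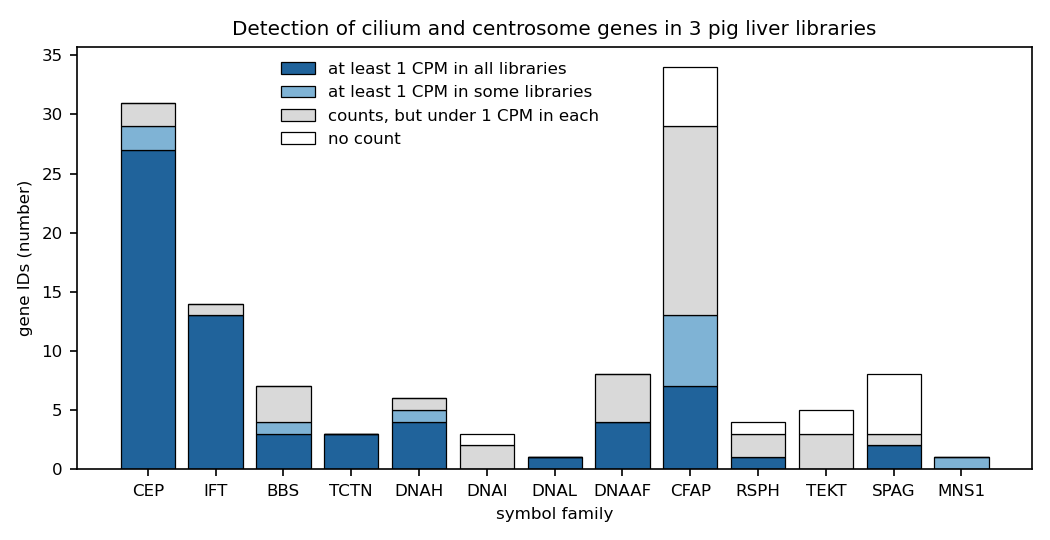
Number of gene IDs in each symbol family, split by how many of the 3 libraries reached at least 1 CPM (unscaled). The CEP, IFT and TCTN bars are almost wholly dark, with 29 of 31, 13 of 14 and 3 of 3 IDs expressed, and of 34 CFAP IDs 13 were expressed and 5 had no count.

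Genes that mark cells with motile cilia were low or without counts in the same libraries. FOXJ1, the transcription factor of motile ciliogenesis, had 33 counts in Enshi black, 25 in Chinese wild boar and 23 in Large White. At 1.53, 1.26 and 1.18 CPM it was expressed. SNTN and ROPN1L had no count, TEKT1 had 1, 1 and 0 counts, and the 5 matched markers of multiciliated epithelium summed to 2.27, 2.32 and 1.79 CPM. Of the dynein intermediate chains, DNAI2 had 0, 1 and 0 counts and DNAI3 had 4, 3 and 12. Of 6 heavy chain IDs 5 were expressed, and the other, DNAH12, had 3, 1 and 6 counts. Each gene named in this paragraph lay below 2 CPM in all 3 libraries.

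The 3 pairs of libraries were compared gene by gene. Ranges in parentheses beside folds are exact conditional binomial intervals at the 95% level, which hold the error of counting reads and nothing else. To pass the size rule, a gene needed its whole interval at 2-fold or more, in one direction. Enshi black and Chinese wild boar were both set against Large White, and then against each other, so the comparisons share libraries and are not independent. The labels name no molecular tags, so PCR copies of 1 molecule may be counted more than once.

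In Enshi black against Large White, 16 of the 76 expressed members passed as lower and 1 as higher. That is 21.1% lower and 1.32% higher, where 8.39% of all 13228 expressed genes passed as lower, 4.69% as higher and 13.1% in either direction. The lower members were 10 axonemal, 5 centrosomal and 1 transport gene, and the 1 higher member was the axonemal gene CFAP43. In Chinese wild boar against Large White, 4 members passed as lower and 1 as higher, or 5.26% and 1.32%, where 3.74% and 2.96% of all expressed genes did, and 6.7% in either direction. In Enshi black against Chinese wild boar, 10 members passed as lower and none as higher, or 13.2% lower where 7.1% of all expressed genes were lower, 4.03% higher and 11.1% either. In bulk liver, fewer cells of a type and less RNA per cell cannot be told apart. Nothing is read from these shares, since results from the same comparisons were known when the families were selected.

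The class medians lay further apart in the comparisons with Enshi black than in Chinese wild boar against Large White. Over the 26 expressed axonemal members, the log2 folds of Enshi black against Large White had a median of -0.79, with 20 members below 0 and 6 above. The 30 centrosomal members had a median of -0.48, with 22 below 0, and the 20 transport and gate members -0.19, with 12 below 0. The median of all expressed genes was 0.01 in this comparison. In Chinese wild boar against Large White the medians were -0.17, -0.23 and -0.18 for axonemal, centrosomal and transport members, where all genes had 0.00. In Enshi black against Chinese wild boar they were -0.61, -0.07 and 0.04, where all genes had 0.01, and the centrosomal median turned to 0.02 with total counts in place of TMM. The expression limit bears on the axonemal medians: 19 axonemal members reached 1 CPM in Enshi black, 20 in Chinese wild boar and 24 in Large White. Members that entered through Large White alone, such as MNS1 and DNAH2, pull the medians against Large White down. No test between the classes was possible with 1 library a breed.

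**Figure D2:**
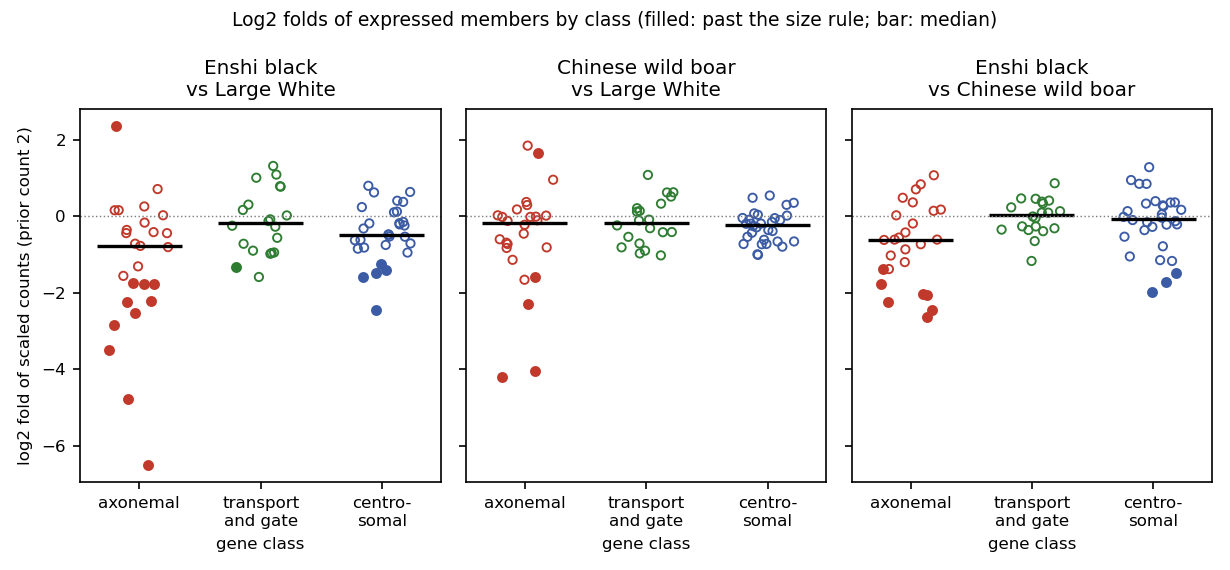
Log2 fold of scaled counts (prior count 2) of each expressed member in the 3 comparisons, by class. Filled points passed the size rule and the bar is the class median. Axonemal points reach from -6.49 to 2.36 in Enshi black against Large White, while transport and gate points stay between -1.59 and 1.31.

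Of the 76 expressed members, 21 had their highest level in Enshi black, 14 in Chinese wild boar and 41 in Large White. These are 27.6%, 18.4% and 53.9% of members, where 37.4%, 29.5% and 33.1% of all expressed genes were highest in those libraries. With total counts in place of TMM, the 3 numbers were 22, 14 and 40. The expression limit bears on this: 9 expressed members reached 1 CPM in only 1 library, among them MNS1, DNAH2, CFAP100, CFAP210 and CFAP90, so these entered through the library where they were high.

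In Enshi black against Large White, the expressed member with the largest fold was an axonemal dynein heavy chain, one of the motors that slide neighbouring microtubules. DNAH1 (ENSSSCG00000028184), a heavy chain of the inner arm, had 1.20 CPM in Enshi black, 6.97 in Chinese wild boar and 117 in Large White. Its level was 97.0-fold lower (66.0 to 149) in Enshi black and 16.8-fold lower (14.1 to 20.0) in Chinese wild boar against Large White. It was also 5.79-fold lower (3.79 to 9.17) in Enshi black against Chinese wild boar, so that the 3 libraries were all apart from each other. DNAH1 made up 1.46% of all axonemal counts (exact Clopper-Pearson interval 0.955 to 2.13) in Enshi black and 5.08% (4.29 to 5.98) in Chinese wild boar, against 46.7% (45.3 to 48.1) in Large White.

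The other inner arm heavy chains were lower by less. DNAH2 had 0.232 CPM in Enshi black, 0.657 in Chinese wild boar and 3.63 in Large White, and it was 15.7-fold lower (6.41 to 49.8) in Enshi black and 5.53-fold lower (3.04 to 10.9) in Chinese wild boar against Large White. DNAH10 had 1.16 CPM in Enshi black, 1.82 in Chinese wild boar and 5.68 in Large White, 4.90-fold lower (3.155 to 7.90) and 3.12-fold lower (2.13 to 4.68) in the same comparisons. Both were highest in Large White, and neither passed between Enshi black and Chinese wild boar. All 3 expressed inner arm heavy chains therefore stood apart as higher in Large White. DNAH2 reached 1 CPM in Large White only, so it entered through the library where it was high. The other inner arm ID, DNAH12, had 3, 1 and 6 counts and was not expressed.

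The outer arm heavy chains, which give most of the power of the ciliary beat, did not pass in any comparison. DNAH9 had 2.83 CPM in Enshi black, 2.78 in Chinese wild boar and 5.02 in Large White, at 0.564 (0.402 to 0.784) times the Large White level in Enshi black and 0.554 (0.391 to 0.779) times in Chinese wild boar. DNAH11 had 1.58 CPM in Enshi black, 2.68 in Chinese wild boar and 2.05 in Large White, at 0.770 (0.473 to 1.25) and 1.31 (0.852 to 2.02) times. The interval of DNAH11 included 1 in both comparisons with Large White.

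MNS1 (ENSSSCG00000004601), a filament protein inside axonemal microtubules that mouse sperm flagella need, had 0.278 CPM in Enshi black, 0.455 in Chinese wild boar and 10.18 in Large White. These levels rest on 6 counts in Enshi black and 9 in Chinese wild boar, against 199 in Large White. It was 36.6-fold lower (16.5 to 101) in Enshi black and 22.4-fold lower (11.6 to 49.7) in Chinese wild boar against Large White. The Large White library alone was high, and the 2 others did not pass against each other.

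The genes next to DNAH1 and MNS1 in the RefSeq order of the Sscrofa11.1 assembly did not pass the size rule. BAP1, next to DNAH1, had 62.9 CPM in Enshi black, 73.4 in Chinese wild boar and 65.5 in Large White, and GLYCTK, on its other side, 149.9, 247.8 and 155.0. TEX9, next to MNS1, had 0.880, 0.556 and 1.28 CPM, and none of these 3 neighbours passed in any comparison. For DNAH2 the neighbour KDM6B did pass as lower in Enshi black against Large White, at 0.307 times (0.253 to 0.371), with 6.86, 12.5 and 22.3 CPM.

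Another set of axonemal genes was low in Enshi black alone. DNAL4, a dynein light chain, had 1.76 CPM in Enshi black, 7.48 in Chinese wild boar and 8.75 in Large White, and was 4.97-fold lower (3.48 to 7.26) in Enshi black against Large White and 4.25-fold lower (2.96 to 6.24) against Chinese wild boar. DNAAF5, a cytoplasmic factor that preassembles dynein arms, had 3.24 CPM in Enshi black, 11.3 in Chinese wild boar and 11.4 in Large White. It was 3.50-fold lower (2.67 to 4.65) in Enshi black against Large White and 3.47-fold lower (2.65 to 4.61) against Chinese wild boar. DNAAF5 overlaps PRKAR1B in RefSeq, and PRKAR1B also passed as lower in Enshi black against Large White, at 0.304 times (0.205 to 0.443), with 1.76, 3.79 and 5.78 CPM. CFAP43, SPAG8, CEP57 and IFT140 likewise overlap a neighbour there (SFR1, NPR2, FAM76B and TMEM204), and with the strand setting of the counting unknown, reads of such overlaps are uncertain.

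SPAG8, a microtubule-associated sperm protein, had 1.71 CPM in Enshi black, 7.48 in Chinese wild boar and 6.09 in Large White, 3.55-fold lower (2.44 to 5.29) in Enshi black against Large White and 4.36-fold lower (3.03 to 6.44) against Chinese wild boar. For these 3 genes the Chinese wild boar and Large White levels did not pass against each other. CFAP100, an inner arm anchoring protein in the alga Chlamydomonas, had 3 counts in Enshi black, 20 in Chinese wild boar and 31 in Large White. The ratio of Enshi black to Large White was 0.0876 (0.0171 to 0.281) and to Chinese wild boar 0.138 (0.0262 to 0.464).

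Of the expressed members, 8 (10.5%) stood apart as lower in Enshi black against both other libraries, where 4.59% of all expressed genes did. Besides DNAH1, DNAL4, DNAAF5, SPAG8 and CFAP100 these were the centrosomal genes CEP128, CEP250 and CEP41. None stood apart as higher in Enshi black, where 1.71% of all expressed genes did. In Large White, 4 members (5.26%) stood apart as higher and 1 (1.32%) as lower, where 1.69% and 1.07% of all expressed genes did. Of those higher, DNAH2 and MNS1 reached 1 CPM in Large White only, as did CFAP100 among those lower in Enshi black. These members entered through the library where they were high, so nothing is read from the shares. In Chinese wild boar none stood apart, where 1.19% of all expressed genes did as higher and 0.884% as lower.

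**Figure D3:**
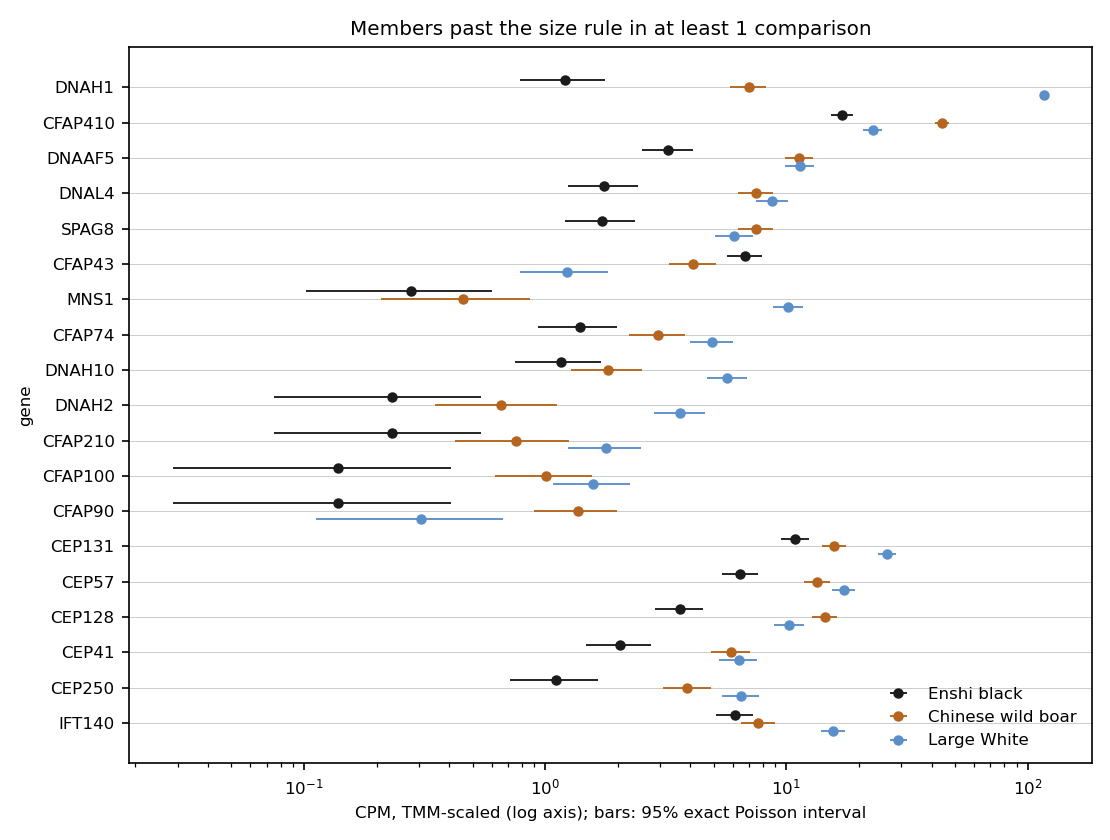
TMM-scaled CPM (log axis) of the 19 members that passed the size rule in at least 1 comparison, with 95% exact Poisson intervals. Enshi black points lie left of both other libraries except for CFAP43, which runs the other way, and Large White alone is high for DNAH1, MNS1, DNAH2 and DNAH10.

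The CFAP family, cilia and flagella associated proteins of mixed function, had members that passed in either direction. CFAP43 (ENSSSCG00000010609), needed for sperm flagella in mouse and human, had 6.72 CPM in Enshi black, 4.09 in Chinese wild boar and 1.23 in Large White. It was 5.47-fold higher (3.54 to 8.81) in Enshi black and 3.33-fold higher (2.09 to 5.50) in Chinese wild boar against Large White, and was the 1 member lowest in Large White by the size rule. SFR1, whose span overlaps CFAP43 in RefSeq, had 6, 3 and 6 counts.

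CFAP74, a central apparatus protein, had 1.39 CPM in Enshi black, 2.93 in Chinese wild boar and 4.91 in Large White, and was 3.53-fold lower (2.32 to 5.52) in Enshi black against Large White. CFAP210 had 5, 15 and 35 counts in Enshi black, Chinese wild boar and Large White, and was 7.73-fold lower (3.02 to 25.3) in Enshi black against Large White. Neither passed in Chinese wild boar against Large White, although both had their middle level there.

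CFAP410, a basal body protein linked in human to retinal and skeletal ciliopathy, was highest in Chinese wild boar, with 17.1 CPM in Enshi black, 44.2 in Chinese wild boar and 22.8 in Large White. It was 2.59-fold lower (2.29 to 2.93) in Enshi black against Chinese wild boar, and Chinese wild boar against Large White gave 1.94 (1.73 to 2.18), short of the rule. CFAP90 had 3 counts in Enshi black, 27 in Chinese wild boar and 6 in Large White, with a ratio of 0.102 (0.0198 to 0.331) between Enshi black and Chinese wild boar. The other 7 expressed CFAP genes passed in no comparison: CFAP20, a conserved inner junction protein, had 9.55 CPM in Enshi black, 4.50 in Chinese wild boar and 7.98 in Large White, and CFAP36 had 7.09 CPM in Enshi black, 6.42 in Chinese wild boar and 6.35 in Large White.

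Of the remaining axonemal families, DNAAF10, part of a chaperone complex, had 7.83 CPM in Enshi black, 8.95 in Chinese wild boar and 8.80 in Large White, and DNAAF8 and DNAAF9 also passed in no comparison. The radial spoke gene RSPH3 had 2.09 CPM in Enshi black, 1.47 in Chinese wild boar and 2.05 in Large White, the 1 expressed gene of 4 RSPH IDs. The 5 tektin IDs, of which the named filament proteins line flagellar microtubules, had at most 8 counts each, and TEKT3 had 8 counts in Enshi black, 0 in Chinese wild boar and 1 in Large White.

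Summed over all 67 axonemal members, the level was 82.6 CPM (exact Poisson interval 78.8 to 86.5) in Enshi black, 137 (132 to 142) in Chinese wild boar and 251 (244 to 258) in Large White. Without DNAH1 the sums were 81.4, 130.2 and 134 CPM. The sum in Chinese wild boar was thus 0.548 (0.522 to 0.574) times that of Large White with DNAH1 and 0.975 (0.923 to 1.03) times without it, and in Enshi black 0.330 (0.312 to 0.348) and 0.609 (0.573 to 0.647) times. Without DNAH1 the interval of Chinese wild boar against Large White included 1, and that of Enshi black did not. Near-equal sums do not mean equal levels gene by gene. CFAP410 alone had 44.2 CPM in Chinese wild boar and 22.8 in Large White. Of the 26 expressed axonemal members, 18 were below 0 on the log2 scale in Chinese wild boar against Large White and 8 above.

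**Figure D4:**
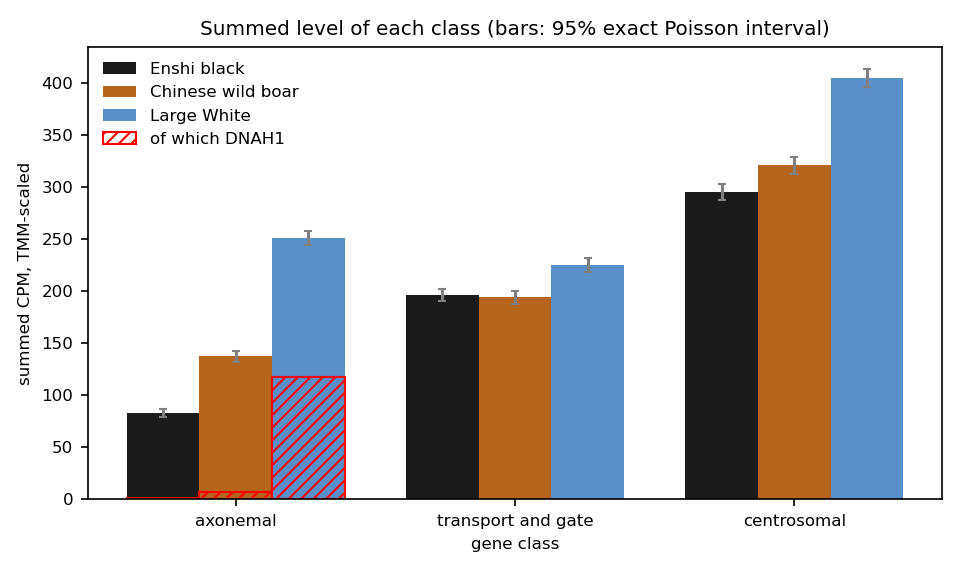
Summed TMM-scaled CPM of all members of each class in each library, with 95% exact Poisson intervals and the DNAH1 part hatched. Large White is highest in each class, and DNAH1 makes up 46.7% of its axonemal bar.

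Centrosomal genes that passed were all lower in Enshi black. CEP250, which holds paired centrioles together as a linker protein, had 1.11 CPM in Enshi black, 3.89 in Chinese wild boar and 6.50 in Large White. It was 5.84-fold lower (3.76 to 9.46) in Enshi black against Large White and 3.50-fold lower (2.19 to 5.79) against Chinese wild boar. CEP128, of the subdistal appendages of the mother centriole, had 3.61 CPM in Enshi black, 14.4 in Chinese wild boar and 10.3 in Large White, 2.85-fold lower (2.18 to 3.75) and 3.99-fold lower (3.09 to 5.19) in the same comparisons.

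CEP41, a Joubert syndrome gene in human that acts in tubulin glutamylation, had 2.04 CPM in Enshi black, 5.91 in Chinese wild boar and 6.35 in Large White, and was 3.11-fold lower (2.19 to 4.50) in Enshi black against Large White and 2.90-fold lower (2.03 to 4.20) against Chinese wild boar. The second of these calls was lost with total counts. CEP57, which acts in centriole duplication, had 6.44 CPM in Enshi black, 13.4 in Chinese wild boar and 17.3 in Large White, 2.69-fold lower (2.20 to 3.30) in Enshi black against Large White. CEP131, of the satellites around the centrosome, had 10.9 CPM in Enshi black, 15.8 in Chinese wild boar and 26.2 in Large White, 2.41-fold lower (2.06 to 2.82) in the same comparison, a call also lost with total counts.

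No centrosomal member passed in Chinese wild boar against Large White, where 3.74% of all expressed genes passed as lower and 2.96% as higher. The members with the most counts, CEP164, CEP170B, CEP290, CEP295 and CEP131, passed in no comparison apart from CEP131. CEP164, the distal appendage protein that docks the basal body, had 50.0 CPM in Enshi black, 48.4 in Chinese wild boar and 59.2 in Large White. CEP170B, a relative of the subdistal appendage protein CEP170, had 37.5 CPM in Enshi black, 48.3 in Chinese wild boar and 63.2 in Large White, at 0.594 (0.543 to 0.649) times the Large White level in Enshi black. CEP290, a transition zone protein mutated in several ciliopathies, had 17.0 CPM in Enshi black, 15.5 in Chinese wild boar and 23.7 in Large White, and CEP295, which stabilises centrioles, had 15.8 CPM in Enshi black, 17.2 in Chinese wild boar and 19.7 in Large White.

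The distal appendage genes CEP83 and CEP89 were also short of the rule, with 11.4 CPM in Enshi black, 12.3 in Chinese wild boar and 16.6 in Large White for CEP83 and 4.59 CPM in Enshi black, 5.36 in Chinese wild boar and 5.22 in Large White for CEP89. Of the 8 expressed genes of centriole assembly, CEP57 passed in 1 comparison and 7 in none. That is 12.5% lower in Enshi black against Large White, where 8.39% of all expressed genes passed as lower, so nothing is read from it. CEP152, a scaffold for centriole duplication, had 5.28 CPM in Enshi black, 4.09 in Chinese wild boar and 4.91 in Large White, and its partner CEP63 had 11.4 CPM in Enshi black, 12.8 in Chinese wild boar and 20.3 in Large White. CEP120, which elongates centrioles, had 19.0 CPM in Enshi black, 14.8 in Chinese wild boar and 14.6 in Large White.

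Both members best known for mitosis and cytokinesis had their highest level in Enshi black. SPAG5, a spindle protein also called astrin, had 7.14 CPM in Enshi black, 2.88 in Chinese wild boar and 4.61 in Large White, at 2.48 (1.82 to 3.42) times the Chinese wild boar level in Enshi black. CEP55, which acts at abscission, had 2.13 CPM in Enshi black, 1.06 in Chinese wild boar and 1.59 in Large White, at 2.01 (1.17 to 3.54) times. Neither passed the size rule in any comparison. Of 24 proliferation genes listed, 17 were matched to a gene ID, and all 17 were expressed. Among these, 4 passed as higher in Enshi black against Large White and 6 against Chinese wild boar, with none lower in either. The shares of all expressed genes that passed as higher were 4.69% and 4.03%. CENPF, a kinetochore protein, had 58.6, 12.03 and 20.9 CPM, and TOP2A, a topoisomerase of dividing cells, had 52.5, 14.8 and 23.5 CPM. Both passed as higher in Enshi black against both other libraries. CCNB1 and CCNB2, the cyclins of mitotic entry, passed against Large White, and BUB1B, CENPE, MCM3 and MCM4 against Chinese wild boar. The median log2 folds of the list were 0.94 and 1.25, where all genes had 0.01. The part of cell division in the SPAG5 and CEP55 levels was not tested.

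The summed centrosomal level was 295 CPM (288 to 302) in Enshi black, 320.4 (313 to 328) in Chinese wild boar and 404 (396 to 413) in Large White. Centriole and centrosome genes under other symbols were counted as a list of their own. Of its 26 expressed genes, 2 passed as higher and none as lower in Enshi black against Large White. In that comparison 4.69% of all expressed genes passed as higher and 8.39% as lower. The list had a median log2 fold of 0.01, the same as all genes. SASS6, which builds the centriolar cartwheel, had 21.8, 8.79 and 7.68 CPM in Enshi black, Chinese wild boar and Large White, and was 2.84-fold (2.36 to 3.43) higher in Enshi black against Large White and 2.48-fold (2.08 to 2.96) against Chinese wild boar. KIAA0586, a ciliary protein also known as TALPID3, had 6.44, 2.32 and 1.64 CPM and was 3.93-fold (2.66 to 5.97) higher in Enshi black against Large White.

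Of the 20 expressed transport and gate genes only IFT140 passed, in 1 comparison. That is 5% lower in Enshi black against Large White, where 8.39% of all expressed genes passed as lower, so nothing is read from it. IFT140, a subunit of the IFT-A complex that runs retrograde transport, had 6.12 CPM in Enshi black, 7.63 in Chinese wild boar and 15.6 in Large White, 2.55-fold lower (2.07 to 3.15) in Enshi black against Large White. That call was lost with total counts. IFT122, also of IFT-A, had 3.52 CPM in Enshi black, 4.55 in Chinese wild boar and 6.65 in Large White, and IFT43 had 4.40 CPM in Enshi black, 5.31 in Chinese wild boar and 4.81 in Large White. These 3 IFT-A genes, the ones with IFT symbols, were below 0 on the log2 scale in Enshi black against Large White under each of 3 scalings. The scalings use the same libraries and are not independent, and the value nearest to 0 was -0.13 with TMM. IFT-A subunits under other symbols went both ways. WDR19 was at 1.70 (1.40 to 2.08) times the Large White level in Enshi black and WDR35 at 0.543 (0.405 to 0.725) times. TTC21B, not expressed by the limit used here, had 20, 20 and 12 counts in Enshi black, Chinese wild boar and Large White.

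The IFT-B genes, which carry anterograde transport, passed in no comparison, and their folds against Large White lay between 0.506 and 1.74 in Enshi black. IFT172 had 19.0 CPM in Enshi black, 22.9 in Chinese wild boar and 37.7 in Large White, at 0.506 (0.447 to 0.571) times the Large White level in Enshi black and 0.609 (0.541 to 0.686) in Chinese wild boar. IFT57 had 7.97 CPM in Enshi black, 8.24 in Chinese wild boar and 15.5 in Large White, at 0.516 (0.425 to 0.624) and 0.533 (0.438 to 0.647) times. IFT88, whose loss in mouse gives polycystic kidneys, had 4.45 CPM in Enshi black, 7.03 in Chinese wild boar and 8.75 in Large White, at 0.508 (0.392 to 0.656) and 0.803 (0.637 to 1.01) times.

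IFT20, IFT46 and IFT52 had levels closer together across the libraries. IFT20, which also works at the Golgi, had 15.1 CPM in Enshi black, 13.7 in Chinese wild boar and 14.8 in Large White, IFT46 had 33.5 CPM in Enshi black, 31.4 in Chinese wild boar and 27.2 in Large White, and IFT52 had 7.65 CPM in Enshi black, 10.1 in Chinese wild boar and 9.26 in Large White. IFT80 had its highest level in Enshi black, with 3.48 CPM in Enshi black, 1.87 in Chinese wild boar and 1.996 in Large White. The 10 expressed IFT-B genes had median log2 folds of -0.18 in Enshi black against Large White and -0.21 in Chinese wild boar against Large White.

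Of the Bardet-Biedl genes, BBS4, a BBSome subunit, had 23.6 CPM in Enshi black, 23.8 in Chinese wild boar and 28.1 in Large White, and BBS2 had 7.27 CPM in Enshi black, 5.46 in Chinese wild boar and 10.8 in Large White. BBS7 had its lowest level in Large White, with 2.69 CPM in Enshi black, 2.27 in Chinese wild boar and 1.02 in Large White, at 2.63 (1.56 to 4.61) times the Large White level in Enshi black and 2.22 (1.29 to 3.97) in Chinese wild boar, but its 20 counts in Large White left the interval wide. BBS10, a chaperonin-like protein that helps assemble the BBSome, had 10, 23 and 31 counts. None of the 4 expressed BBS genes passed, and BBS5, BBS9 and BBS12 had 9 to 18 counts in each library.

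The tectonics were the 1 family of several genes whose members all had the order Enshi black, Chinese wild boar, Large White from high to low. TCTN1 had 28.2 CPM in Enshi black, 20.5 in Chinese wild boar and 16.3 in Large White. TCTN2 had 6.67 CPM in Enshi black, 5.10 in Chinese wild boar and 3.28 in Large White, and TCTN3 had 2.83 CPM in Enshi black, 2.02 in Chinese wild boar and 1.28 in Large White. Enshi black against Large White gave 1.73 (1.504 to 1.98) for TCTN1, 2.04 (1.51 to 2.78) for TCTN2 and 2.21 (1.37 to 3.67) for TCTN3. None reached the rule, since the lower bounds lay below 2, and that order was not tested. Their median log2 fold was 1.01 in Enshi black against Large White and 0.62 in Chinese wild boar against Large White.

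**Figure D5:**
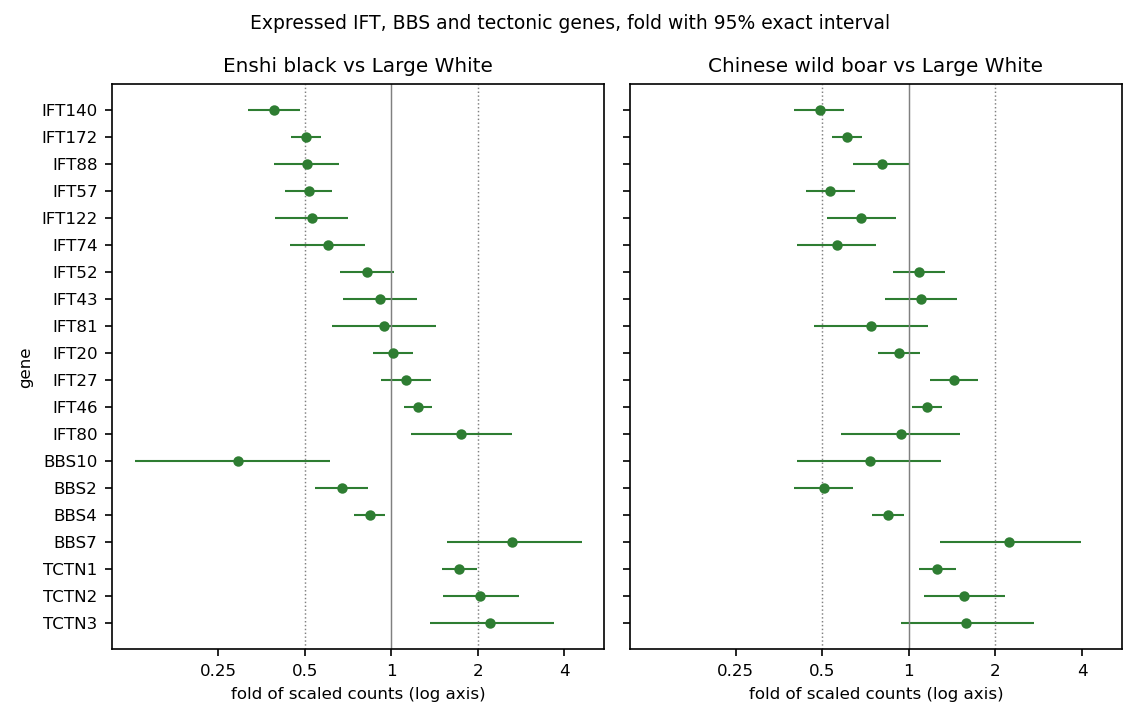
Fold of scaled counts of the 20 expressed IFT, BBS and tectonic genes against Large White, with 95% exact intervals on a log axis. The dotted lines mark 0.5 and 2, and only IFT140 in Enshi black has its whole interval past one of them.

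Partners of these genes under other symbols were counted as lists, to be read against the 8.39% of all expressed genes that passed as lower in Enshi black against Large White and the 7.1% against Chinese wild boar. Of 12 expressed transport motor and IFT genes, 1 passed as lower in Enshi black against Large White and none as higher, with a median log2 fold of -0.07. DYNC2I2, an intermediate chain of the retrograde motor dynein-2, had 7.41, 10.4 and 18.4 CPM and was 2.48-fold (2.05 to 3.005) lower. Of 20 expressed transition zone and ciliopathy genes, 1 passed as lower and none as higher, with a median of -0.32. It was PKD1, the polycystin-1 gene of polycystic kidney disease, with 61.2, 87.4 and 136.7 CPM, 2.23-fold (2.09 to 2.39) lower. In Enshi black against Chinese wild boar, TMEM17 and B9D2, both of the transition zone complex, passed as lower. TMEM17 had 4 counts in Enshi black, 27 in Chinese wild boar and 20 in Large White, and B9D2 had 5.10, 17.2 and 11.5 CPM and was 3.37-fold (2.71 to 4.22) lower. None of either list passed in Chinese wild boar against Large White.

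Of 19 matched genes of a motile cilium list, 6 were expressed, with a median log2 fold of -0.04 in Enshi black against Large White. LRRC23, a radial spoke protein, had 3.10, 1.82 and 0.614 CPM and was 5.06-fold (2.71 to 10.3) higher in Enshi black against Large White. STK36, a kinase needed for the central apparatus in mouse, had 0.788, 3.44 and 3.07 CPM and was 3.90-fold (2.24 to 7.13) lower against Large White and 4.36-fold (2.54 to 7.92) lower against Chinese wild boar. Of 13 expressed Hedgehog genes, a pathway received at the primary cilium in vertebrates, 2 passed as higher in Enshi black against either other library and none as lower, with medians of -0.02 against Large White and 0.24 against Chinese wild boar. They were HHIP, an inhibitor that binds the ligand, at 51.5, 19.7 and 21.96 CPM, and the coreceptor CDON, at 6.53, 1.42 and 1.23 CPM. Among all expressed genes, 4.69% passed as higher in Enshi black against Large White and 4.03% against Chinese wild boar.

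Markers of the liver's cell types differed between the libraries too. Of 9 matched cholangiocyte markers 8 were expressed, none was at 0, and they summed to 542 CPM in Enshi black, 580.2 in Chinese wild boar and 514 in Large White. None passed in either comparison with Large White, and their median log2 fold was -0.08 in Enshi black and 0.15 in Chinese wild boar. SPP1, a secreted phosphoprotein, passed as higher in Enshi black against Chinese wild boar. The 13 matched stellate cell and fibroblast markers summed to 1364, 789 and 569.9 CPM, with 6 of 12 expressed (COL1A2, COL3A1, DCN, PDGFRA, LRAT and LOX) passing as higher in Enshi black against Large White and a median log2 fold of 1.12. The 6 macrophage markers summed to 1501, 1731 and 1919.6 CPM, with CSF1R, MARCO and LYZ passing as lower in the same comparison and a median of -1.19. The 7 endothelial markers summed to 585, 437 and 826 CPM, with MMRN2 passing as higher and STAB1 as lower. Among all expressed genes, 4.69% passed as higher and 8.39% as lower in Enshi black against Large White. In Chinese wild boar against Large White, 2.96% and 3.74% did. The part of these cell types in the levels of cilium and centrosome genes was not tested.

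With biological variation assumed at a coefficient of 0.4 on top of the counting error, 4 members were still lower in Enshi black against Large White: DNAH1, DNAH2, MNS1 and CFAP100. So were DNAH1 and MNS1 in Chinese wild boar against Large White, and no member in Enshi black against Chinese wild boar. DNAH2, MNS1 and CFAP100 reached 1 CPM in Large White only, so they entered through the library where they were high. CFAP100 had 3 counts in Enshi black. The spread is assumed, and no spread between animals was measured. The share of all expressed genes that passed with this spread is not given here, so nothing is read from these counts.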

How the data were processed

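The deposited values were whole-number read counts per gene ID, 1 table a library. Per the submitters' processing notes, TopHat2 2.1.0, HTSeq 0.6.1 and edgeR 3.16.3 were among the authors' tools and Sscrofa10.2 the genome build. Not stated in the sources used here are the gene annotation, the strand setting and the treatment of reads that fit several genes. The 5 rows that name no gene were left out: reads with no feature came to 19.0%, 18.9% and 22.0% of all rows' counts and ambiguous reads to 1.89%, 2.49% and 2.18% in Enshi black, Chinese wild boar and Large White.

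Counts were scaled with TMM (edgeR 4.0.16, R 4.3.3) over the expressed genes (1 CPM or more in any library), with factors of 1.04, 0.979 and 0.978. Fold intervals are exact conditional binomial (scipy 1.17.1), and log2 folds use a prior count of 2. One library a breed allows no test, so a fixed size rule stood in its place. The calculation was tested on simulated counts. Members and lists were chosen with earlier results of these data known. Named members were those that passed, those with the most counts in each class, and all dynein chains with counts; further members were named after their values were seen. Symbols came from the name table, and neighbours from RefSeq (Sscrofa11.1), which held 64 of the 76 expressed members. No sequence is printed, and 1 marker gene is not reported here. Alternatives were DESeq2 1.42.0 size factors, total counts, other filters, bounds and intervals, an assumed spread between animals and a correction for gene span.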

Additional observations from a re-analysis of the deposited data

How the results depend on the processing

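The counts of members that passed moved with the size rule and the filter, and no call reversed. They are given for Enshi black against Large White, Chinese wild boar against Large White, and Enshi black against Chinese wild boar in turn. The shares of all expressed genes given above hold for the main rule only. The counts under other settings are therefore not set against a share, and nothing is read from them about the members. With at least 10 CPM in 1 library, which left 27 members, 6, 1 and 4 were lower and 0, 0 and 0 higher, and the axonemal median of the last comparison was -1.77 over 3 members. A bound of 1.5 gave 4, 3 and 2 higher, and 10 lower in the second comparison. A bound of 4 gave 3, 2 and 0 lower and none (0) higher in the first and second. The wider interval gave 8 and 6 lower in the first and last comparisons and 0 higher in the second. An assumed coefficient of variation of 0.2 gave 8 and 5 lower there and 0 higher in the second. One of 0.4 gave 4, 2 and 0 lower and 0 higher in the first and second. DESeq2 size factors, total counts, no filter, a mean of at least 1 CPM (chosen after seeing the data), another prior count, means for medians and the span correction left each count within 1.5 times and each class median within the median interval bounds of its members, although the centrosomal median of the last comparison turned from -0.07 to 0.02 with total counts. Total counts shifted the median of all genes in the first comparison from 0.01 to 0.10. Depth limits the weakest members: those with 3 to 6 counts in a library have intervals several fold wide. No paired analysis was possible because each breed has 1 library, and for the same reason no library could be left out.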

Other observations

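Some members below 1 CPM in every library still had counts that differed between libraries. Those named here were picked out after their values were seen. DNAAF11, a dynein arm preassembly factor, had 0 counts in Enshi black, 2 in Chinese wild boar and 18 in Large White. CEP126, a centrosomal protein, had 0, 15 and 9 counts, and CFAP46 had 1, 12 and 15.

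The RefSeq neighbours of members that passed as lower in Enshi black against Large White were looked at in the same comparison. Of 19 expressed neighbours of 11 such members, 3 passed as lower and 0 as higher, where 8.39% of all expressed genes passed as lower and 4.69% as higher. Besides PRKAR1B and KDM6B this was CPA1, beside CEP41, with 0, 28 and 45 counts in Enshi black, Chinese wild boar and Large White. In Chinese wild boar against Large White, 0 of 8 neighbours of the 4 lower members passed in the same direction, where 3.74% of all expressed genes passed as lower.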
